A study of Caenorhabditis elegans with 16 samples.

Results

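H3K9me2, a dimethyl mark on histone H3 that is typical of silent chromatin, was compared between 2 mutant strains of Caenorhabditis elegans by chromatin immunoprecipitation and sequencing (ChIP-seq). The comparison covers every 500 bp window of the genome that held at least 20 counts in all 4 input libraries of the series, which was 191140 of 198087 windows, or 96.5% of them and 95.6 Mb. No measured ChIP value was used to choose the windows. The first strain, met-2(n4256) III, lacks the methyltransferase MET-2, and the strain it was set against, set-25(n5021) III, lacks the methyltransferase SET-25. Each strain stands for 1 allele. Wild-type embryos are not among the samples, and the values therefore set the mutants against each other without showing what either one lost. Chromatin came from early embryos, before the bean stage, grown at 20 °C for 60 to 65 h after synchronization at the first larval stage and fixed with 2% formalin for 30 min. The labels list 8 H3K9me2 samples, a ChIP and an input in 2 replicates for each strain. The table analysed holds 1 column of counts for each of these 4 groups, and it stays unknown if such a column is a single replicate or both added up. No spread between replicates could be estimated, and no test was run. Intervals below are 95% exact intervals. Those of a region's enrichment cover counting error only. Those of a share of windows treat windows as independent, which neighbours are not, so they are too narrow.

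MET-2 is the worm relative of mammalian SETDB1 and adds the first and second methyl groups to lysine 9 of histone H3. SET-25 can add the third, and H3K9me3 in worm embryos depends on it. In embryos that lack both enzymes H3K9 methylation is not detected. In worm chromosomes the methylated chromatin lies mostly on the outer parts, the arms, which are rich in repeats and contact the nuclear envelope, while the middle parts hold most of the broadly expressed genes.

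The H3K9me2 ChIP libraries held 26568332 counts in met-2 and 19777605 in set-25, and their inputs 34007808 and 44992666. The median window held 137 ChIP counts in met-2 and 41 in set-25, so the set-25 values are the less precise ones. Of the kept windows, 0 had no ChIP count in met-2 and 53 had none in set-25. As a check of the labels, windows on III, where both mutated genes lie, were searched for stretches missing from an input. From 8376501 to 8377500 the met-2 ChIP and input both held 0 counts (a count of 0 allows up to 3), while set-25 held 74 and 513. From 13287501 to 13289000 the met-2 ChIP and input held 182 and 376 counts, while set-25 held 6 and 4. All 4 H3K9me2 libraries were thus as labelled at these places. In each stretch 2 counts were found in the input that goes with H3K9me3 under the set-25 label, which neither strain's name gives, so H3K9me3 values below come from met-2 alone. The name of that H3K9me3 ChIP column ends in 1, and the column may hold replicate 1 only.

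Over each strain's own input, H3K9me2 enrichment was nearly flat along the genome in met-2 embryos, whereas in set-25 embryos it varied over a wide range. Enrichment means log2 of ChIP over the strain's own H3K9me2 input. Each column was scaled to its total (CPM), 0.1 CPM was added, and each library was then centred on its own median window, which is 0 from here on. Before centring the median window stood at -0.01 in met-2 and at -1.33 in set-25. After centring, the central 80% of windows spanned -0.59 to 0.55 in met-2, against -1.02 to 2.37 in set-25. The highest 1% of windows began at 1.07 in met-2 and at 4.91 in set-25, and the maxima were 2.41 and 7.52. The standard deviation over windows was 0.46 in met-2 and 1.40 in set-25. Counting error alone would give 0.16 in met-2 and 0.25 in set-25 at the median window. In both libraries the windows thus varied more than their counts account for, which need not be variation in H3K9me2. Enrichment in met-2 correlated at -0.58 with the log2 ratio of the met-2 to the set-25 input. The met-2 input is part of both values, and its share in the spread was not tested. In met-2, 2625 windows (1.37%) stood at least 1 above the library's median, against 45467 (23.8%) in set-25.

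**Figure D1:**
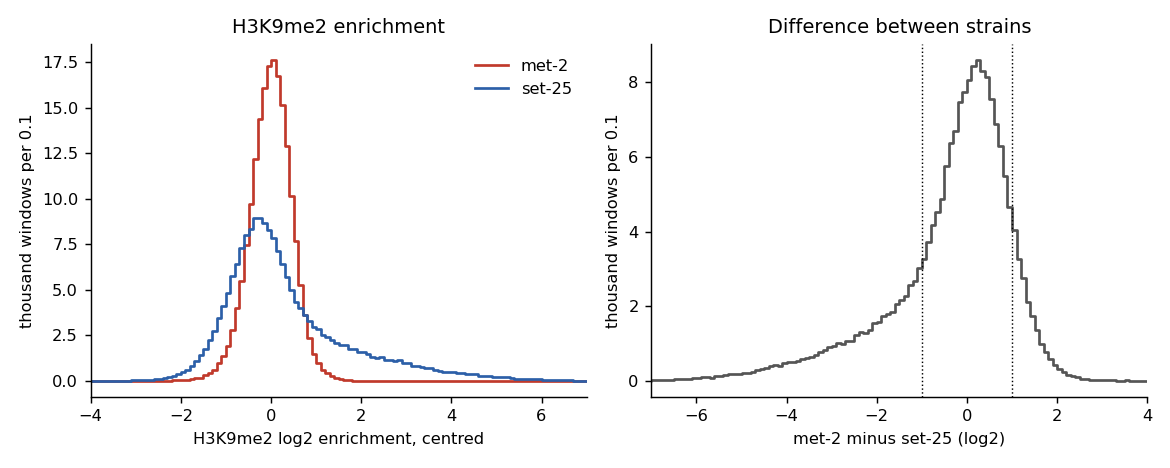
Left, number of 500 bp windows per 0.1 step (axis in units of 1000) against centred log2 H3K9me2 enrichment in met-2 and set-25 embryos. Right, the same against the difference met-2 minus set-25, with dotted lines at 2-fold. The met-2 curve is narrow (SD 0.46) and the set-25 curve has a long upper tail (SD 1.40), which becomes the lower tail of the difference.

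H3K9me2 was at least 2-fold lower in met-2 than in set-25 in 44911 windows (23.5%) and at least 2-fold higher in 19204 (10.05%). The 2 directions differed most in size. At least 4-fold lower were 23216 windows (12.1%), against 1182 (0.618%) that were at least 4-fold higher. At least 16-fold lower were 4906 windows (2.57%), and 3 windows (0.00157%) were at least 16-fold higher. The median difference, met-2 minus set-25, was -0.05, the quartiles -0.91 and 0.53, and the extremes -7.72 and 4.31.

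The split into lower and higher windows depended on the scaling. With totals alone and no centring, 9.81% of windows were lower in met-2 and 60.2% higher, and the median difference was 1.27. Totals that leave out the 1% most covered windows gave 12.6% lower and 46.3% higher. Quantile normalisation, which forces both libraries onto the same distribution, gave 15.9% lower and 16.1% higher. Centred on the middle parts of the autosomes, they were 31.7% and 3.67%. The higher class also shrank to 2.72% with a pseudocount of 1 CPM and to 2.20% in windows of 5 kb, while the lower class came to 19.5% and 26.6%. Directions of single regions below are therefore given relative to the median window of each library.

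Windows of the lower class were high in set-25 and ordinary in met-2. At the median they stood at -0.0012 in met-2, with quartiles of -0.34 and 0.31, and at 2.12 in set-25, with quartiles of 1.42 and 3.08. The class was chosen on these same 2 enrichments, of which set-25 varied more, so its high set-25 values were largely fixed in advance. In 88.3% of its windows set-25 stood at least 1 above its median, against 23.8% of all windows. In met-2, 50.1% of them lay below the library's median, 70.0% within 0.5 of it, and 3.77% at least 1 below it. Over all windows the quartiles of met-2 were -0.30 and 0.29, a slightly narrower spread than in this class, and 5% of windows lay below -0.78. The ChIP columns carried the difference, with a centred log2 ratio of met-2 to set-25 of -2.09 for ChIP and -0.02 for input. Median counts in this class were 117 (ChIP) and 161 (input) in met-2, against 155 and 215 in set-25.

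Windows of the higher class were low in set-25 and slightly raised in met-2. Their median enrichment was 0.19 in met-2 and -1.15 in set-25. In 99.2% of them set-25 lay below its own median, and in 62.2% at least 1 below it. Over all windows 10% lay below -1.02 in set-25. By the same cutoffs met-2 stood above its median in 67.1% of them. In 713 of the 19204 (3.71%) met-2 stood at least 1 above its median, against 1.37% of all windows. The median set-25 ChIP count in this class was 18, against 155 in met-2, and 55.5% of its windows stood alone, with no adjacent window in the class. These values rest on few set-25 counts, and the part of depth in them was not tested.

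The level of H3K9me2 in met-2 hardly followed that in set-25. Where set-25 stood between 1 and 2, the median of met-2 was 0.13. It was 0.15 where set-25 stood between 2 and 3, 0.15 between 4 and 5, and 0.21 in the 320 windows where set-25 exceeded 6, with quartiles of -0.06 and 0.44. Over this whole range of set-25 the median of met-2 moved by less than 0.1. Of the 24345 windows at 2 or more in set-25, 845 (3.47%, interval 3.24 to 3.71%) reached 1 in met-2, against the 1.37% of all windows. Below the median of set-25 the 2 libraries varied together somewhat more, and met-2 stood at -0.43 where set-25 was below -2.

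Those small steps in met-2 depended on the input. In the windows where set-25 was at least 4, met-2 had a median of 0.16 with its own input and 0.09 with the mean of both H3K9me2 inputs as a common input. Without any input it was -0.12, and with the inputs of the H3K9me3 experiment -0.10. Across all 191140 windows the enrichments of met-2 and set-25 correlated at r = 0.23 (Spearman's rho 0.26), which is given as a description, since neighbouring windows share counts and base composition. The difference correlated at -0.95 with set-25 and at 0.10 with met-2. Since it is made of these 2 enrichments, both values follow from their standard deviations (0.46 in met-2, 1.40 in set-25) and r = 0.23. With the ratio of the ChIP columns alone, which is also part of it, the difference correlated at 0.98.

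The difference followed the position along the chromosomes. As arms served the outer 25% on both sides of every autosome. Of the autosomal windows lower in met-2, 89.5% (89.2 to 89.8%) lay on arms, and of those higher in met-2 13.8% (13.3 to 14.4%), where 49.5% of all autosomal windows are arm windows. Of the windows at least 16-fold lower, 96.6% lay on arms. The median difference was -0.88 on autosomal arms and 0.40 in autosomal middles, and this gap of -1.29 cannot be moved by centring a library. In met-2 the median enrichment was -0.02 on arms and 0.03 in middles, whereas in set-25 it was 0.86 on arms and -0.37 in middles. The met-2 values depended on the input. With met-2's input of the H3K9me3 experiment, its autosomal arms stood at -0.40 to -0.09, except the right arm of IV at 0.21. The middles then stood at 0.09 to 0.22. Without input the arms of met-2 stood at -0.31 to -0.05 and the middles at 0.06 to 0.21.

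**Figure D2:**
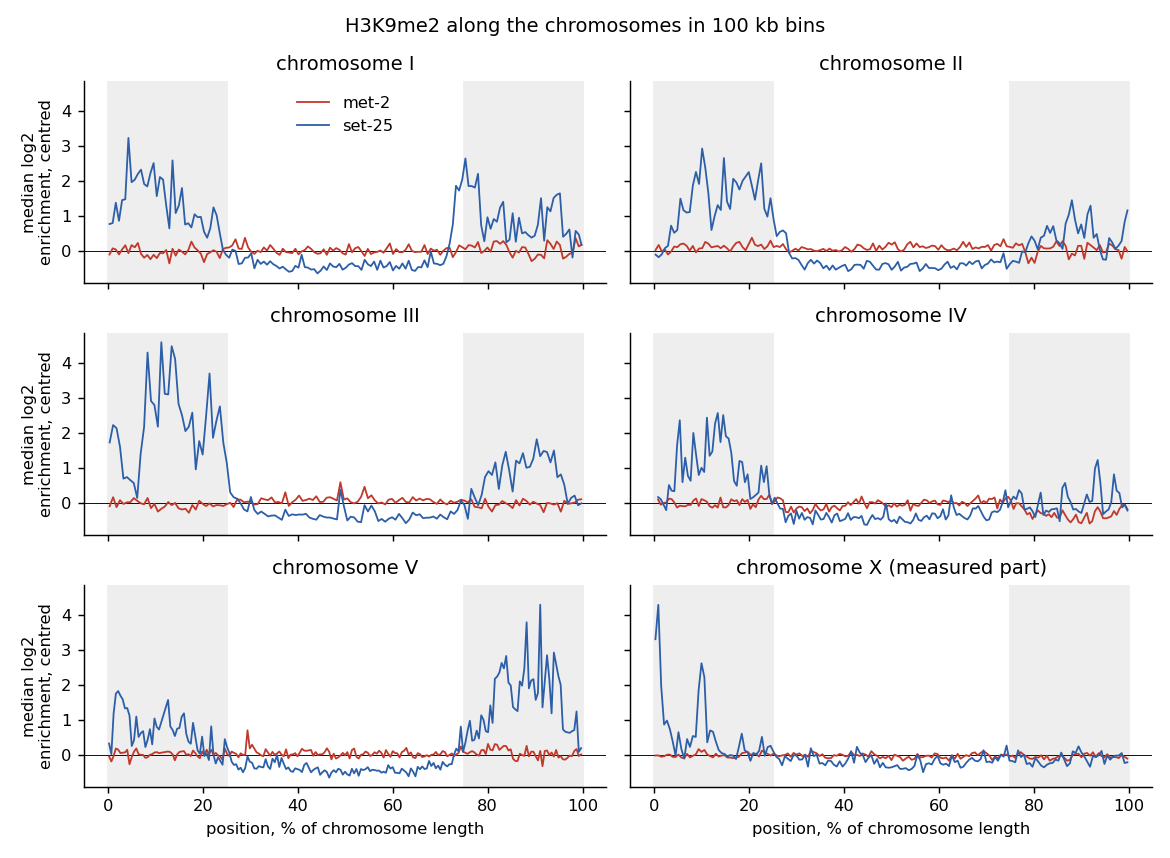
Median centred log2 H3K9me2 enrichment in 100 kb bins against position in percent of the chromosome's length, in met-2 and set-25 embryos, with arms shaded (X up to the last window of the table). The met-2 line stays between -0.60 and 0.70, while the set-25 line reaches 4.59 on the arms.

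Among the 10 autosomal arms the left arm of III differed most. Its median was -0.07 in met-2 and 2.17 in set-25, and 74.6% of its windows were lower in met-2, with 0.725% higher. The right arm of V came next (0.04 in met-2 against 1.44 in set-25, with 61.5% of windows lower), followed by the left arms of I (58.5% lower) and II (55.6%). The left arm of IV had 44.9% lower windows, the right arms of I and III 42.8% and 42.2%, and the left arm of V 36.2%. The right arms of II and IV had the fewest, at 29.5% and 26.5%. The arms of a chromosome were therefore unequal, with 74.6% against 42.2% on III for left and right, and 36.2% against 61.5% on V.

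The right arm of IV, which holds most of the worm's piRNA genes, was the chromosome part where met-2, over its own input, lay furthest from its median. Its median was -0.32 in met-2 and -0.03 in set-25, a median difference of -0.35. The direction in met-2 depended on the input, since with the input of the H3K9me3 experiment met-2 stood at 0.21 on this arm, and without input at -0.31. The centred log2 ratio of the met-2 to the set-25 input was 0.13 there, the largest of the 18 chromosome parts. In the other 17 parts the median of met-2 lay between -0.07 and 0.11 with its own input. With the input of the H3K9me3 experiment it lay between -0.40 and 0.22, and the left arm of II turned from 0.11 to -0.21. Without input it lay between -0.27 and 0.21. With its own input, single 100 kb bins within those parts lay further from the median window. Met-2 stood at -0.29 from 5100001 on IV, at -0.37 from 12000001 on II and at 0.70 from 6100001 on V.

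The middle parts of the autosomes resembled each other. The median difference ran from 0.34 on IV to 0.47 on II, and between 3.62% of windows on V and 8.47% on I were lower in met-2, while 15.7% (IV) to 20.8% (II) were higher. In set-25 the median of the middle parts was between -0.39 and -0.35 on all 5 autosomes, and in met-2 between -0.04 and 0.08.

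Chromosome X, measured up to 16493500, had few lower windows at its right end. Divided by the same rule over its measured length, its left arm had a median of -0.02 in met-2 and 0.36 in set-25, with 28.5% of windows lower. Its middle stood at -0.04 in met-2 and -0.19 in set-25, and its right part at -0.05 and -0.13, with 7.69% of windows lower and 8.14% higher.

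**Figure D3:**
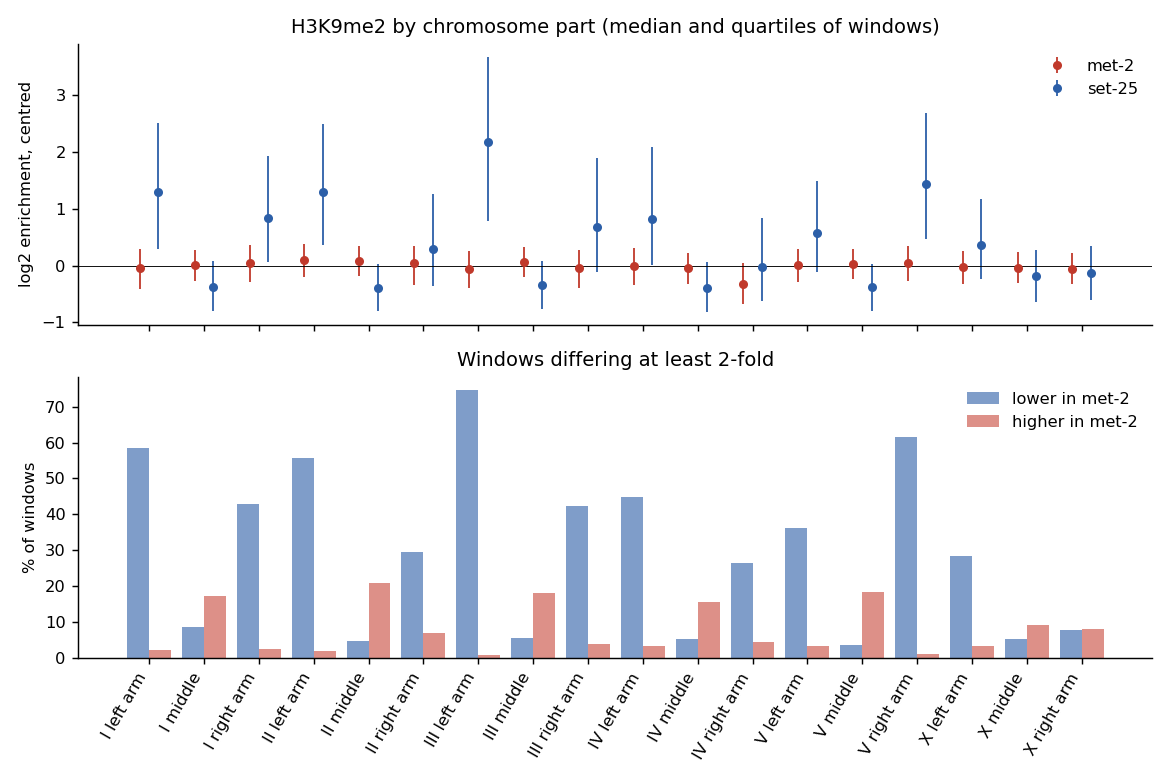
Top, median centred log2 H3K9me2 enrichment in the 18 chromosome parts in met-2 and set-25 embryos, with bars from the lower to the upper quartile of windows. Bottom, percent of windows in each part that were at least 2-fold lower or higher in met-2. The left arm of III has the largest share lower (74.6%) and the middle of II the largest share higher (20.8%).

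In steps of 1 Mb the change of sign, as centred, fell near the border of the arms on every autosome. The longest stretch of bins with a median difference above 0 ran from 4 to 11 Mb on I, from 4 to 12 Mb on II, from 4 to 10 Mb on III, from 5 to 13 Mb on IV and from 5 to 15 Mb on V. These stretches began at 23.9% (V) to 29.0% (III) of the chromosome and ended at 71.7% (V) to 78.5% (II). On X the stretch began at 4 Mb and ran to the last window. Unlike the gap between arms and middles, these borders depend on the centring, since a shift of all differences moves the change of sign. Of 986 bins of 100 kb, 186 had a median difference of -1 or less and 0 had one of 1 or more.

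The 5 bins of 100 kb with the lowest median difference included 3 from III, all on its left arm. Between 1500001 and 1600000 there, H3K9me2 stood at -0.18 in met-2 and 4.59 in set-25, and 97.0% of windows were lower in met-2. The bins from 1800001 and from 1100001 on III followed the same pattern, at -0.07 against 4.48 and at 0.13 against 4.29. The others were the second bin of X, from 100001 to 200000, at -0.02 in met-2 and 4.29 in set-25, and the bin from 19000001 to 19100000 on V, at 0.11 and 4.29. All 5 lay within 0.2 of the median window in met-2 and above 4 in set-25.

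The 5 bins with the highest median difference were far less extreme. They lay in the middles of II (from 7000001, 8100001 and 8500001), III (from 7300001) and V (from 8900001), and their median differences ran from 0.74 to 0.76. H3K9me2 in them stood at 0.10 to 0.20 in met-2 and at -0.59 to -0.44 in set-25. Between 28.1% and 34.5% of their windows were higher in met-2.

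Adjacent lower windows joined into long runs. There were 952 runs of at least 5 kb, which covered 9.28 Mb and held 41.3% of the lower windows. Of these runs 863 lay on autosomal arms, 33 in autosomal middles and 56 on X. The right arm of V held 157 and the left arm of III 134, whose runs covered 1.85 and 1.88 Mb. From summed counts the median of the 952 runs was 0.06 in met-2, with quartiles of -0.12 and 0.22, and 2.93 in set-25, with quartiles of 2.43 and 3.57. In 3 of the 952, met-2 reached 1. The runs were chosen on these same enrichments. In the 33 runs of the middles the medians were 0.23 in met-2 and 2.68 in set-25, so these few runs resembled those of the arms. Of the 33, 20 lay in the middle of I, which by the 25% rule ends at 11304500. The 100 kb bins from 11000001 to 11300000, just inside that border, stood at 1.72 to 2.03 in set-25.

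The longest lower run, on III from 1499501 to 1558000, measured 58.5 kb and lay on the left arm. It held 11088 ChIP and 16523 input counts in met-2, against 157758 and 23880 in set-25. Met-2 stood at -0.21 (interval -0.25 to -0.18) and set-25 at 5.24 (5.22 to 5.26), a difference of -5.45. As centred, the enrichment of set-25 was 43.8 times that of met-2. The median window of this run differed by -5.23, by -3.90 with totals only and by -3.19 with quantile normalisation. Another 4 of the 10 longest runs lay on the same arm, from 1657001 to 1700500, from 1861001 to 1908500, from 1962001 to 2010000 and from 2909001 to 2947500. Their differences ran from -5.01 to -4.12, with met-2 between -0.12 and 0.17.

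The second longest run, 51 kb on the left arm of II from 3385501 to 3436500, differed less. It held 14267 ChIP and 15025 input counts in met-2, against 30738 and 22487 in set-25, for enrichments of 0.29 and 2.96 and a difference of -2.68. The remaining 4 lay on the right arm of V, from 17038501, 17215001, 18231001 and 19403001, at 42 to 44 kb each, with differences of -3.32 to -2.64. In summed and centred counts all 5 runs on III differed more than these 5, yet their size depended on the scaling. Taken as the median over windows, the 5 runs on III had differences of -5.23 to -3.66 as centred, -3.90 to -2.33 with totals only and -3.19 to -1.98 with quantile normalisation.

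On the other arms the longest run of each was shorter. The largest difference among them was on the right arm of I, in 28 kb from 13781001 to 13809000. It held 5462 ChIP and 8710 input counts in met-2, against 62286 and 11416 in set-25, so that enrichment was -0.31 in met-2 and 4.96 in set-25, a difference of -5.27. The left arm of X held a 35 kb run from 1652501 to 1687500 at 0.09 in met-2 and 4.05 in set-25. The smallest difference was on the right arm of IV, in 17.5 kb from 16286501 to 16304000, at 0.04 in met-2 and 2.45 in set-25. The longest runs of the left arms of I, IV and V and of the right arms of II and III had differences from -4.14 to -3.07.

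Set-25 stayed raised beyond the ends of these runs, while met-2 stayed close to its median inside and outside. In the 20 kb outside a run of at least 5 kb the median of set-25 was 0.56 in the first window, which by the definition of a run could not be lower by 2-fold, and 1.56 at 2.25 kb and 1.51 at 20.25 kb. In met-2 the same windows stood at -0.0022, -0.0024 and -0.012. At 9.75 kb inside the runs long enough to have such windows, the medians were 0.13 in met-2 and 3.42 in set-25. The windows outside a run include those of neighbouring runs.

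**Figure D4:**
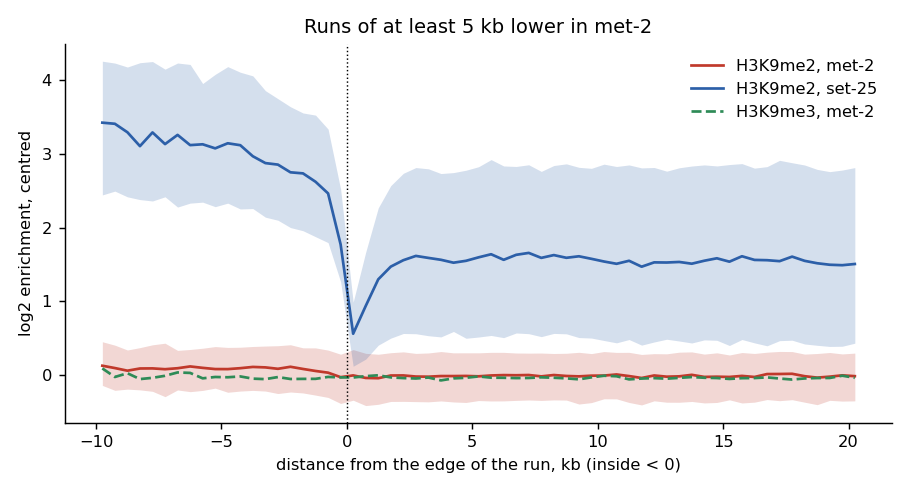
Median centred log2 enrichment of H3K9me2 in met-2 and set-25 embryos, and of H3K9me3 in met-2, by distance in kb from the edge of the 952 runs at least 5 kb long that were lower in met-2 (shading, quartiles of windows). Set-25 dips at the edge, where the definition of a run forces it, and stays near 1.5 outside, while both met-2 lines stay near 0.

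Runs in the higher direction were short. Of 14184 runs, 3 reached 5 kb and another 10 measured 4 kb. All 13 lay in autosomal middles, 6 of them on II. The longest, from 10936001 to 10941500 on II, held 2354 ChIP and 1252 input counts in met-2, against 337 and 2372 in set-25. Met-2 stood at 1.27 (interval 1.17 to 1.37) and set-25 at -0.30 (-0.47 to -0.14), a difference of 1.57. The median window of this run differed by 1.29. That value fell below 2-fold centred on the autosomal middles (0.89) and with the inputs of the H3K9me3 experiment (0.80). The next, from 8112001 to 8117500 on II, stood at 0.86 and -0.82, and the run from 7681001 to 7685000 on II at 0.78 and -1.12.

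All 13 of these higher runs carried H3K9me3 in met-2. H3K9me3 of met-2, which was not used to choose them, stood at 1.54 to 3.85 over them, relative to the median window of that library. Over the 10 longest lower runs it ran from -0.29 to 1.43, with the 1.43 in the run from 17038501 on V and the next highest at 0.25. Over all 952 lower runs of at least 5 kb its median was -0.12, and 61 of them reached 1. The 13 higher runs lay in autosomal middles and most lower runs on arms, so position differs between them too. On X, where the longest higher runs measured 2 kb in the middle and 3.5 kb in the right part, H3K9me3 of met-2 was -0.15 and 0.44. These 2 runs were shorter than the 13, and no difference between X and the autosomes was tested.

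Over all windows the same relation was weaker. H3K9me3 of met-2 reached 1 in 12.4% of the higher windows and in 5.32% of the lower ones, against 6.32% of all windows. The marks came from separate experiments with separate inputs, and the correlation of the difference with H3K9me3 of met-2 was 0.07 across windows, too weak to read.

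Where H3K9me3 of met-2 was very high, H3K9me2 was raised in both strains. In the 1322 windows at 3 or more, H3K9me2 had a median of 1.05 in met-2 and 0.88 in set-25, and the median difference was 0.14. The sign of that difference depended on the input, since it was -0.16 with the inputs of the H3K9me3 experiment, -0.07 without input and -0.11 with the common input. Between 2 and 3 the values were 0.69 and 0.31, and below 0.5 both strains stood within 0.1 of their medians. H3K9me2 passed 1 in both strains in 1380 windows (0.722%). They are 52.6% of the 2625 such windows of met-2, where 23.8% of all windows passed in set-25. They are also 3.04% of the 45467 of set-25, where 1.37% of all windows passed in met-2. H3K9me3 of met-2 reached 1 in 55.9% of the 1380 and in 62.6% of those that passed in met-2 alone. It did so in 5.85% of those that passed in set-25 alone, near the 6.32% of all windows. With the inputs of the H3K9me3 experiment in place of their own, the medians in the 1322 windows were -0.15 in met-2 and -0.11 in set-25. Without input they were 0.80 and 0.69, and with the common input 0.90 and 1.02, so the raised level was not seen with 1 of the 4 choices of input.

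**Figure D5:**
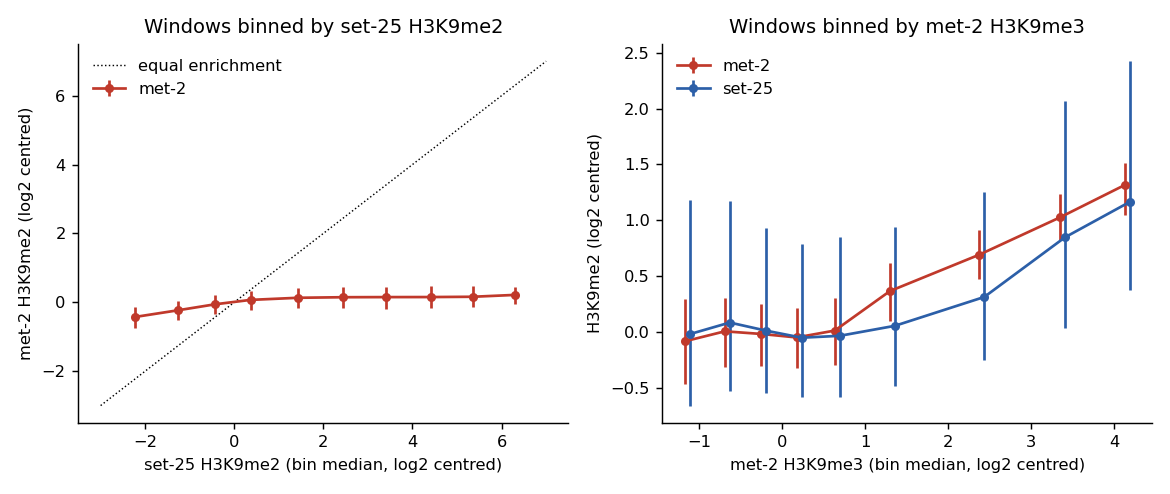
Left, median H3K9me2 of met-2 in windows binned by H3K9me2 of set-25. Right, median H3K9me2 of met-2 and set-25 in windows binned by H3K9me3 of met-2 (all centred log2 enrichment, bars from lower to upper quartile). On the left met-2 stays between 0.07 and 0.21 over all bins above 0, far from the dotted line of equal enrichment, and on the right both strains exceed 0.8 in the last 2 bins.

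Of all 100 kb bins, the one from 6100001 to 6200000 on V had the highest median in met-2, 0.70, against -0.05 in set-25, with H3K9me3 of met-2 at 2.57. The next were on III, from 6700001 to 6800000 (0.58 in met-2 and 0.37 in set-25) and from 7400001 to 7500000 (0.45 and -0.08), with H3K9me3 of met-2 at 1.12 and 0.86. These 3 bins were singled out after their values were seen.

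The strains also differed in how far H3K9me2 was alike along the chromosome. Windows 5 kb apart correlated at 0.14 in met-2 and 0.50 in set-25, and windows 100 kb apart at 0.04 and 0.39. At 1000 kb the values were 0.03 in met-2 and 0.28 in set-25. For the difference they were 0.52 at 5 kb and 0.31 at 1000 kb. Adjacent windows, which fragments can span, correlated at 0.46 in met-2 and 0.80 in set-25.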

How the data were processed

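The values are raw counts in 500 bp windows as deposited, in 8 columns, per the file headers 1 for each mark, strain and ChIP or input. Not given in the sources used here are the aligner, the counting tool, the build and what the authors did with duplicates and repeats. Positions are those of the deposited windows, counted from 1. The incomplete last line was left out. Paired reads came from amplified libraries that were not selected for size, per the series' design text. Amplified reads are not independent molecules. Since each group has 1 column, thresholds of size were used and no test was run. Windows and alternatives were chosen with earlier results of these data known. The counts were analysed with Python 3.11.15, numpy 2.4.6, pandas 2.3.3 and scipy 1.17.1. Windows with a lowest input of 20 to 24 counts, just inside the floor, had a median difference of -0.77, and those at 15 to 19, just outside, -0.71. Runs are adjacent kept windows past 2-fold in 1 direction, and region values use summed counts with exact (Clopper-Pearson) intervals of the ChIP share. Regions named are the 10 longest runs per direction (ties by mean difference), the longest run of each chromosome part in its main direction, the 5 lowest and 5 highest 100 kb bins and the stretches missing at the mutated genes. Stretches missing from an input were at least 2 windows under 10% of its median where the other strain's input exceeded 40%. Scripts were tested on simulated counts. No gene was named from a position, since the build is not named and the gene table at hand is for WBcel235.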

Additional observations from a re-analysis of the deposited data

How the results depend on the processing

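No paired analysis was possible because each group has 1 column, and the H3K9me2 columns carry no replicate number (only met-2's H3K9me3 ChIP column has a final 1, of unknown meaning), so leaving out a replicate could not be run either. The gap between autosomal arms and middles in the difference, met-2 minus set-25, cannot change with centring, with totals alone or with the threshold. Under the other settings tried the arms stayed below the middles. The gap of -1.29 became -0.92 with quantile normalisation, -1.45 with the input of the H3K9me3 experiment, -0.98 with a pseudocount of 1 CPM, -1.68 in 5 kb windows, -1.02 with the outer 33% as arms and -1.21 without chromosome III. For the -1.45 the set-25 side used the H3K9me3 input of doubtful label.

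The count of windows lower in met-2 (44911) was 18742 with totals only, 24014 with totals without the 1% most covered windows, 23216 at a 4-fold threshold and 5238 of 19675 windows of 5 kb. The count higher in met-2 (19204) was 115017 with totals only, 88530 with those trimmed totals, 7015 centred on the autosomal middles, 30752 with quantile normalisation, 5203 with a pseudocount of 1 CPM, 433 in 5 kb windows, 43607 at a 1.5-fold threshold and 1182 at 4-fold.

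The share of lower autosomal windows on arms (89.5%) was 94.0% with totals only, 86.1% centred on the middles, 90.2% with quantile normalisation, 93.1% with trimmed totals, 89.9% without input, 90.9% with a pseudocount of 1 CPM, 87.7% with no filter on input counts, 92.8% in 5 kb windows, 85.9% at 1.5-fold, 93.3% at 4-fold, 95.7% with the outer 33% as arms and 89.1% without chromosome III.

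The median H3K9me2 of met-2 in windows with H3K9me3 of met-2 at 3 or more turned from 1.05 to -0.15 with the input of the H3K9me3 experiment, an alternative added after the data were seen, and the cause was not tested. None of the 18 lower and 13 higher named runs changed direction under the 8 settings of scaling, input and pseudocount. The runs were chosen as windows past 2-fold in these same counts, so a kept direction was largely fixed in advance and is no support. Leaving out centring raises every difference alike, so no higher run could turn with totals only. With totals only 16 of the 18 lower runs stayed past 2-fold, and with a pseudocount of 1 CPM 10 of the 13 higher ones. Centred on the autosomal middles 11 of the 13 higher runs did, and with the inputs of the H3K9me3 experiment 12. These 13 are the 10 longest and the longest of the middle of V and of the middle and right part of X. They are not the same set as the 13 runs of at least 4 kb described with H3K9me3. The set-25 ChIP, with a median of 41 counts per window, limits single windows.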
